A study of Homo sapiens with 3 samples.

Results

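Broad cleavage zones are mRNA 3′ ends whose poly(A) junctions are scattered over several neighbouring nucleotides instead of sitting at one preferred nucleotide. They were chosen by their profile in the input library: same-strand positions within 24 nt of the highest position, in counts summed over the 3 libraries, were merged into a site, and nuclear sites with at least 300 input counts were kept when their highest input position held 25% or less of the input counts. This gave 633 broad sites among 9841 nuclear sites with at least 300 input counts, or 6.43% (Wilson 95% interval 5.96 to 6.93), out of 779809 nuclear sites in all. Of the remaining sites, 7118 had over 25% and under 60% at 1 position, 2044 had 60% to under 90%, and 46 had 90% or more. The 2044 sites, called focused ends below, are the comparison used throughout.

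The libraries were made from HEK293T, an established human embryonic kidney cell line, by 2P-seq, which sequences the junction between an mRNA and its poly(A) tail. One library held RNA captured after 30 min in medium with 4-thiouridine (4sU), one held RNA captured after 60 min, and one was the input of the 30 min labelling, whose treatment label is none. It also served as the reference for 60 min. RNA made while 4sU is present carries this nucleoside and can be pulled out, so the captured libraries are enriched for newly made RNA and the input stands for steady-state RNA. Each group had 1 library (n = 1), so no value below has a replicate check and no p-value is given. The captured libraries skipped the first poly(A) selection of the protocol, which is not stated for the input, and this cannot be told apart from labelling. The labels' cell line could not be checked against marker genes, since positions were not assigned to genes.

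Cleavage of a pre-mRNA is set by a hexamer such as AAUAAA, bound by the cleavage and polyadenylation specificity factor (CPSF), and by a U- or GU-rich element downstream of the cut, bound by the cleavage stimulation factor (CstF). The endonuclease CPSF73 cuts between these elements, and poly(A) polymerase then adds the tail. The cut is often not made at one nucleotide, and the ends of a single poly(A) site can differ by several nucleotides, a property known as microheterogeneity. Encoded A residues at the junction cannot be told from the tail, so the exact place of an end next to a run of A is uncertain. How such residues were treated here is not stated.

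The 3 libraries held 14159691 counts (4sU 30 min), 8926568 (4sU 60 min) and 35410931 (input), of which 9652023, 6151986 and 32768468 lay on nuclear chromosomes. Of nuclear counts, 3.94% (4sU 30 min), 3.50% (4sU 60 min) and 4.08% (input) fell into broad sites. Focused ends took 18.2%, 17.99% and 23.2% of them. The median broad site (lowest and highest in parentheses) held 260 counts in the 4sU 30 min library (16 to 18805), 127 in the 60 min one (7 to 7610) and 806 in input (301 to 95593). No broad site was at 0 in any library, and 519 had at least 100 counts in 4sU 30 min and 374 in 4sU 60 min. Positions are printed 1-based, in a genome build not given in the sources used here; counts on chromosome 1 reached position 249223263, beyond the last gene end of the GRCh38 gene table at hand (248937099). The tables' strand was read as the transcribed one, which no source states; the opposite reading would swap all upstream and downstream directions.

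At the limit itself the classes grade into each other. The members just inside it, chr16:57187628 on the minus strand, chr8:23286676 on the minus strand and chr4:108968705 on the minus strand, had 25% of 408, 464 and 404 input counts at 1 position. Just outside lay chr16:1820343, chr1:1337329 and chr4:71685251, all on the minus strand, with 25.01%, 25.02% and 25.02% of 1739, 1331 and 1243 input counts. With 300 counts a share of 25% has a Wilson interval from 20.4% to 30.2%. For 303 of the 633 members the upper limit of this interval was 25% or less; 151 members had at most 20% at their highest input position and 23 had at most 15%.

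In the input, which chose the members, most broad sites had more than a single peak by the rule given below. The highest position held a median of 22.2% of the counts (interquartile range 20.2 to 23.8), and 7 positions (6 to 8) were needed to reach 80%. The inverse Simpson number, the count of equally used positions that would give the same concentration, was 7.69 (6.84 to 8.89) in broad sites and 2.07 (1.85 to 2.27) in focused ends. Peaks were counted as positions with at least 50% of the highest count, at least 3 nt apart and parted by a dip to at most 50% of the lower one. By this rule 545 of 633 broad sites (86.1%) had 2 or more peaks: 353 had 2, 165 had 3, 23 had 4, 2 had 5 and 2 had 6, while 88 had 1. Among the 267 broad sites with at least 1000 input counts, 219 (82.0%) had 2 or more. Over all 9841 sites, 22.2% had 2 or more. All 2044 focused ends had 1 peak, which their limit of 60% at 1 position nearly fixes. By this rule a dip at a single nucleotide was enough to part peaks, and counting error was not allowed for. Sequences were not used, so such dips could not be told from encoded A residues.

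**Figure D1:**
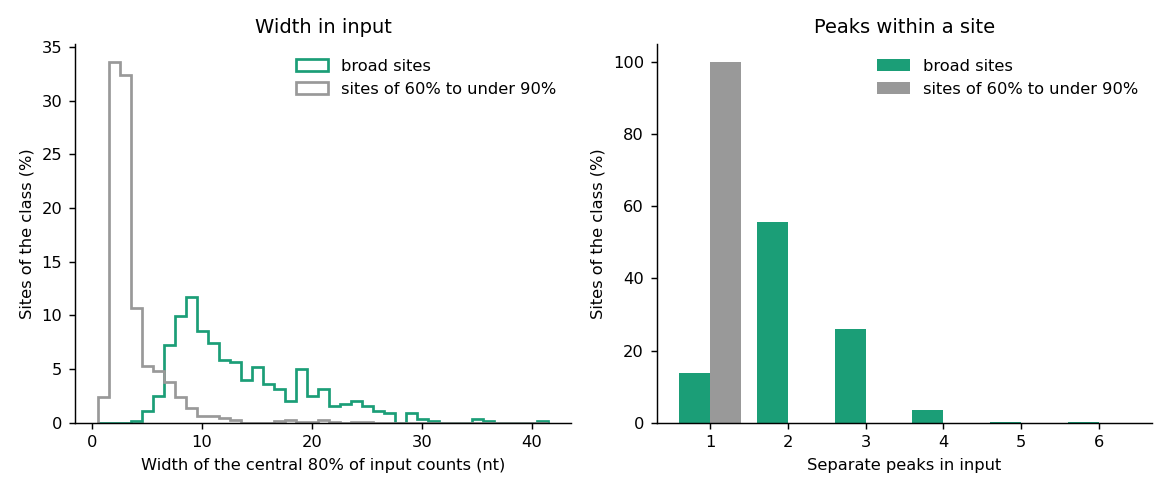
Left, the width in nt of the window holding the central 80% of input counts, as a percentage of the 633 broad sites (green) and the 2044 sites with 60% to under 90% of input counts at 1 position (grey). Right, the percentage of each class by number of separate input peaks; 353 broad sites had 2 peaks and all 2044 grey sites had 1. The input chose both classes, so both panels are descriptions.

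The width of the zone, measured as the span of the central 80% of input counts, had a median of 12 nt (9 to 17, extremes 4 and 41) in broad sites and 3 nt (2 to 4, extremes 1 and 25) in focused ends. Of the broad sites, 133 (21.0%) spanned 8 nt or less, 212 (33.5%) spanned 9 to 12 nt, 117 (18.5%) spanned 13 to 16 nt, 135 (21.3%) spanned 17 to 24 nt and 36 (5.69%) spanned 25 nt or more. A low share at 1 nucleotide therefore covered both compact clusters and ends that filled most of the 49 nt that a site can hold. In the 353 broad sites with 2 peaks, the peaks lay a median of 6 nt apart (5 to 8, extremes 3 and 24); they were at most 6 nt apart in 207 sites (58.6%) and more than 12 nt apart in 37 (10.5%).

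The most abundant broad site, chr9:130209956 on the minus strand, had 27.8%, 26.7% and 24.6% of its counts at its highest position in 4sU 30 min, 4sU 60 min and input. It formed 1 block, with a central 80% of 10 nt and a standard deviation (SD) of positions of 3.04, 2.87 and 2.82 nt. At chr12:56555363 on the plus strand, a pair of peaks lay 4 nt apart. The upstream peak held 18.9%, 21.3% and 20.2%, and the downstream peak 24.1%, 22.6% and 20.3%. The position just upstream of both held 13.4%, 12.4% and 19.6%. It was thus nearly level with the peaks in input but below them in both captured libraries. The site at chr1:45976723 on the minus strand was also split, with 18.3%, 19.6% and 18.6% at a position 3 nt upstream of one that held 15.3%, 18.6% and 19.7%. At chr1:26227059 on the minus strand, a peak 3 nt upstream of the highest held 13.9%, 14.5% and 12.8%, and the highest 23.6%, 21.4% and 24.7%. In 4sU 30 min yet another position of chr1:45976723 led, with 19.7%. At the other 3 of these sites the highest input position was also the highest in both captured libraries.

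The site at chr9:127115759 on the minus strand, also among the 5 most abundant, had 3 peaks over 14 nt. The upstream one held 21.2%, 24.7% and 20.6% of the counts in 4sU 30 min, 4sU 60 min and input. The peaks 9 and 14 nt further downstream held 13.5%, 15.4% and 16.2%, and 17.2%, 14.0% and 15.8%. All 3 were thus used in each library, with no single nucleotide above 24.7%.

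The most dispersed sites reached 6 peaks. The site at chr1:28904271 on the plus strand had the largest SD, 12.4, 13.4 and 13.6 nt in 4sU 30 min, 4sU 60 min and input, from a pair of peaks 23 nt apart that held 12.9%, 22.4% and 19.5%, and 31.4%, 26.3% and 21.9%. The lowest share at 1 input position was at chr18:19109263 on the minus strand, with 10.1% of 318 input counts at its highest position and 6 peaks. These peaks held only 17 to 32 input counts each, so counting error may part some of them. Its counts were also low in 4sU 30 min (149) and 4sU 60 min (44). At chr21:45176037 on the plus strand, also with 6 peaks, the highest position held 10.7%, 9.55% and 12.7% of 309, 220 and 1816 counts. At chr6:36570698 on the plus strand, 5 peaks stood within 19 nt, and the highest held 13.1%, 11.9% and 12.7%. In each of these 3 sites the highest input position held under 14% in every library.

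Broad sites lay among other 3′ ends more often than focused ends did, as counted over same-strand sites with at least 5% of their counts within 2000 nt. Of the 633, 248 (39.2%) had no such neighbour, 146 (23.1%) had neighbours downstream only, 116 (18.3%) upstream only and 123 (19.4%) on both sides. Among focused ends the shares were 48.2%, 17.1%, 20.6% and 14.1%, and over all 9841 sites 44.6%, 18.1%, 21.0% and 16.2%. A neighbour lay within 100 nt of 132 broad sites (20.9%), of 14.0% of focused ends and of 16.6% of all sites. It lay within 48 nt, so that its window met or overlapped the site's, for 46 broad sites (7.27%). The shares within 48 nt were 5.28% of focused ends and 6.29% of all sites. Wider zones had closer neighbours: the share with one within 100 nt was 10.5% for widths of 8 nt or less, 17.9%, 24.8% and 27.4% for the next width classes, and 38.9% (14 of 36) for 25 nt or more. Neighbouring pairs of broad sites within 2000 nt of each other numbered 11, with no count for other sites beside it. These differences were not tested, and where a zone runs past 24 nt the merging rule cuts it into neighbours.

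Broad sites were found on every autosome and on chromosome X. Their share of the sites with at least 300 input counts was highest on chromosomes 21 (12 of 107, 11.2%, 6.53 to 18.6) and 22 (30 of 268, 11.2%, 7.95 to 15.5), and lowest on chromosomes 13 (8 of 179, 4.47%, 2.28 to 8.57) and X (17 of 349, 4.87%, 3.06 to 7.66). The Wilson intervals of chromosomes 21 and 22 lie above the 6.43% of all chromosomes, and those of the other chromosomes hold it; this was not tested. The strands held 309 (plus) and 324 (minus).

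The breadth seen in the input was also present in newly made RNA. Of the 285 broad sites with at least 300 counts in 4sU 30 min, 222 (77.9%) had 25% or less at the highest position of that library, against 8.09% of the 4634 sites with such counts. In 4sU 60 min it was 121 of 170 (71.2%), against 6.23% of 2762. Few went far past the limit: 9 of the 285 and 6 of the 170 had over 30%. The highest values were 33.7% at 30 min and 40% at 60 min. None of the focused ends with at least 300 counts in a captured library had 25% or less there.

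Profiles of the same zone were close to each other between libraries. Their overlap, the sum over positions of the smaller share, was computed for sites with at least 300 counts in each library. Across 166 broad sites its median was 89.4% between 4sU 30 min and input (87.2 to 92.0), 88.9% between 4sU 60 min and input (86.5 to 91.6) and 92.0% between 4sU 60 min and 4sU 30 min (89.6 to 93.9). Across 611 focused ends it was 92.4%, 92.9% and 95.5%. No broad site fell below 79.1% in any pair of libraries. Counting error lowers an overlap more where counts are spread over more positions, so the values of the classes are not on an equal footing.

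The highest position differed between libraries in part of the broad sites. Among the 285 broad sites above, 181 (63.5%) had the same highest position in 4sU 30 min as in input, and 41 (14.4%) had it more than 5 nt away. In 4sU 60 min it was the same in 110 of 170 (64.7%) and more than 5 nt away in 27 (15.9%). Of all sites with such counts, 92.4% had the same highest position in 4sU 30 min and 2.18% had it more than 5 nt away, and in 4sU 60 min 93.2% and 2.06%. All 1014 focused ends with such counts kept it in 4sU 30 min and 619 of 620 in 4sU 60 min, which their definition nearly ensures.

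The spread of positions within broad sites differed little between captured RNA and input. The SD of positions had medians of 4.62 nt in 4sU 30 min (3.38 to 6.34), 4.67 nt at 60 min (3.29 to 6.34) and 4.52 nt in input (3.31 to 6.47). Site by site, the 4sU 30 min value minus the input value had a median of 0.0624 nt (-0.152 to 0.31) and was above 0 in 58.0% of broad sites; at 60 min the median was 0.0233 nt (-0.228 to 0.323), with 53.1% above 0. Focused ends had medians of 0.157 nt (69.9% above 0) and 0.0768 nt (59.9%). The smaller excess of broad sites did not hold under every choice of members: with the same limits applied in 4sU 60 min, which the 30 min comparison does not use, broad minus focused was -0.0155 nt in place of -0.0942 nt, and with the limits applied in 4sU 30 min it was 0.0195 nt at 60 min in place of -0.0535 nt. With members chosen in those libraries the excess over input in broad sites was 0.0954 nt at 30 min (185 sites) and 0.0761 nt at 60 min (426 sites). Merging positions within 12 nt gave 0.015 nt at 30 min and turned the 60 min value to -0.0132 nt. No direction of the spread between captured RNA and input in broad sites was therefore stable at 60 min, and the cause was not tested.

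The inverse Simpson number gave the same picture. Its median in broad sites was 7.93 in 4sU 30 min, 7.75 at 60 min and 7.69 in input, and the site-by-site difference from input had medians of 0.228 and 0.117 positions. At the highest input position, broad sites held medians of 20.2% in 4sU 30 min, 20.8% at 60 min and 22.2% in input. Focused ends held 62.8%, 64.2% and 67.0% there. That position was picked for its input counts, which by itself raises the input value.

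**Figure D2:**
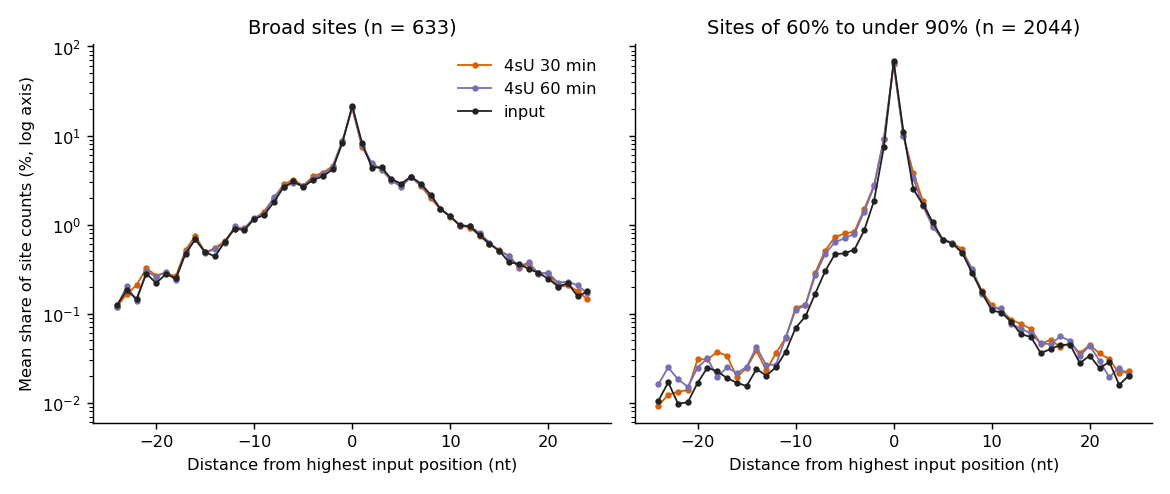
Mean share of site counts (%, log axis) at each distance in nt from the highest input position, over 633 broad sites (left) and 2044 sites with 60% to under 90% of input counts at 1 position (right), for 4sU 30 min (orange), 4sU 60 min (violet) and input (black). In broad sites the 3 lines nearly coincide; in the other class the 5 positions upstream of the highest sum to 15.1%, 14.6% and 11.1%.

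Averaged over broad sites, captured RNA held a slightly larger share on the upstream side of the zone. The 5 positions upstream of the highest input position held 23.2%, 22.7% and 21.8% of a site's counts in 4sU 30 min, 4sU 60 min and input, those 6 to 12 nt upstream 12.4%, 11.97% and 11.7%, and those further upstream 4.73%, 4.51% and 4.35%. On the downstream side, the first 5 positions held 22.3%, 22.6% and 23.1%, and those 6 to 12 nt away 12.7%, 12.95% and 13.2%. Further downstream the order turned, with 4.36%, 4.56% and 4.29%. In these summed classes the upstream side was higher in both captured libraries and the downstream side lower up to 12 nt. Single positions did not all follow: the position 2 nt downstream held 4.81%, 4.90% and 4.37%, and that 15 nt upstream 0.487%, 0.475% and 0.490%. In focused ends the 5 upstream positions held 15.1%, 14.6% and 11.1%, and the 5 downstream ones 17.2%, 16.5% and 16.9%.

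The mean position in captured RNA lay upstream of that in input at most broad sites. The shift had a median of -0.226 nt at 30 min (-0.639 to 0.18), with 64.8% of broad sites below 0, and of -0.149 nt at 60 min (-0.602 to 0.409), with 59.2% below 0. In focused ends the medians were -0.0832 nt and -0.0888 nt, with 69.5% and 70.0% below 0, and over all 9841 sites -0.13 nt and -0.109 nt, with 69.6% and 65.7% below 0. Broad sites thus lay upstream of the input less often than all sites, though by more nt. Divided by the site's own input SD, the shift at 30 min had a median of -0.0537 in broad sites and -0.0589 in focused ends, and at 60 min -0.0406 and -0.0643, so in these units the broad sites did not move further. The larger shift in nt was seen in each class of input depth: -0.189 and -0.0889 nt in broad and focused sites of 300 to under 600 input counts, -0.244 and -0.0855 nt from 600 to under 1500, and -0.228 and -0.0784 nt from 1500. With members chosen in 4sU 60 min the shift of broad sites at 30 min was -0.197 nt.

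**Figure D3:**
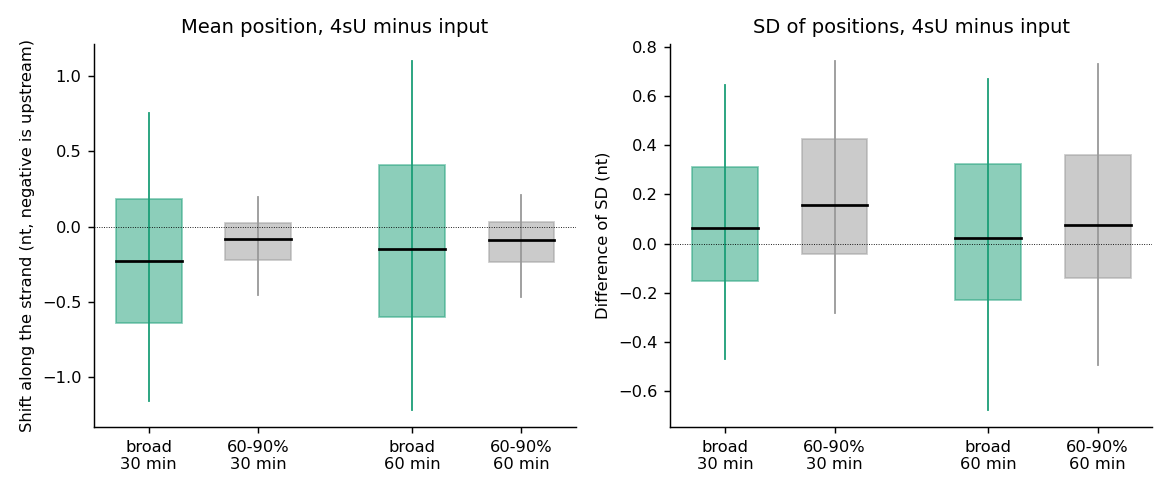
Left, the mean position in a captured library minus that in input, in nt along the strand (negative is upstream); right, the difference in SD of positions in nt, for 633 broad sites (green) and 2044 sites of 60% to under 90% (grey). Black lines are medians over sites, boxes span the quartiles and thin lines the 10th to 90th percentiles; the median shifts of broad sites are -0.226 nt at 30 min and -0.149 nt at 60 min.

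A site was called moved when its mean position differed by at least 0.5 nt and the 95% interval of the difference, from counting error, excluded 0. At 30 min 127 broad sites (20.1%) were called upstream and 57 (9.005%) downstream of the input, while 12.1% and 3.17% of all 9841 sites were called. At 60 min it was 106 (16.7%) upstream and 63 (9.95%) downstream, against 9.08% and 3.58%. At 60 against 30 min, 26 broad sites were upstream and 50 downstream, or 4.11% and 7.90%, where 2.49% and 4.21% of all sites were called. A limit in nt is passed more easily where positions are more spread. By width, upstream calls outnumbered downstream ones in the classes up to 16 nt, with 16 and 2 for 8 nt or less and 49 and 8 for 9 to 12 nt. For widths of 13 to 16 nt 31 sites (26.5%) were upstream and 14 (11.97%) downstream at 30 min, for 17 to 24 nt 26 were upstream and 26 downstream, and for 25 nt or more 5 and 7. The median shifts did not follow width in this way: they were -0.173, -0.252, -0.344, -0.0908 and -0.269 nt from the narrowest to the widest class.

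At 2 of the 4 sites with the largest upstream shifts, another peak led in captured RNA than in input. At chr16:30017095 on the plus strand, the peak at 30017095 held 29.1% of the counts in 4sU 30 min, 24.8% at 60 min and 19.5% in input, and the peak 16 nt downstream, at 30017111, held 13.2%, 18.9% and 23.0%. The mean position was 3.68 nt upstream of the input at 30 min (-4.53 to -2.84 as signed values) and 2.82 nt upstream at 60 min. At chr6:43479572 on the minus strand, the peak 21 nt upstream of the highest input position held 24.3%, 18.5% and 17.3%, and the highest input position held 10.9%, 10.4% and 24.2%. Its shifts were -3.17 nt and -3.06 nt. In both zones the upstream end led in captured RNA and the downstream end in input.

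The largest upstream shift, -3.69 nt at 30 min (-4.42 to -2.97) and -2.40 nt at 60 min, was at chr1:1152312 on the minus strand. Its upstream peak held 31.9%, 27.3% and 24.3%, and its downstream peaks, 17 and 23 nt away, held 14.8%, 20.2% and 20.8%, and 8.84%, 8.86% and 14.5%. At chr3:88104565 on the minus strand, the shift was -3.06 nt at 30 min (-3.79 to -2.34) and -1.85 nt at 60 min; a position 8 nt upstream of the highest held 12.95%, 8.70% and 5.76%. The ratio of CPM (counts per 1000000 nuclear counts) in 4sU 30 min to input, over the whole zone, was 1.83 here, 1.01 at chr1:1152312, 0.945 at chr16:30017095 and 1.12 at chr6:43479572. At the last 3 the total was thus near that of the input while the inner balance differed.

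Shifts in the downstream direction were led by chr7:139107908 on the plus strand, 5.15 nt at 30 min (4.13 to 6.17) and 4.18 nt at 60 min. Its highest input position held 15.6%, 21.7% and 22.9% in 4sU 30 min, 4sU 60 min and input, while positions 19 and 22 nt downstream held 11.4%, 10.1% and 4.77%, and 11.7%, 11.6% and 7.41%. At chr14:105965583 on the plus strand, shifted by 3.09 nt and 2.37 nt, the downstream peak held 30.2%, 23.9% and 21.5% and a peak 17 nt upstream of it 11.8%, 16.6% and 17.6%. At chr14:21558241 on the minus strand, shifted by 2.16 nt and 2.71 nt, a position 24 nt downstream held 11.5%, 13.6% and 8.39%. A same-strand site with at least 5% of the counts lay 39 nt downstream of chr7:139107908, and one lay 28 nt from chr14:21558241. The windows thus overlapped, and whether counts at the edges of these 2 zones belong to the neighbours was not tested. All of these sites were picked as the extremes of 372 broad sites with at least 100 counts in each library.

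The site at chr11:62656330 on the plus strand combined a downstream shift with a high level in captured RNA. It had 1334 CPM in 4sU 30 min, 1208 CPM at 60 min and 185 CPM in input, from 12874, 7432 and 6071 counts. Its level was 7.20-fold that of the input at 30 min (6.98 to 7.42) and 6.52-fold at 60 min (6.30 to 6.75). The highest input position held 14.5%, 13.9% and 18.8%, a position 6 nt upstream 8.26%, 6.38% and 13.03%, and one 12 nt downstream 12.5%, 13.7% and 9.29%. Its mean position was 2.24 nt (1.97 to 2.52) and 3.22 nt (2.92 to 3.53) downstream of the input, on far more counts than the other shifted zones.

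In the 353 broad sites with exactly 2 peaks, the site was cut at the lowest point between them and the downstream part followed. Its share had medians of 52.6% in 4sU 30 min, 53.3% at 60 min and 53.2% in input, and the site-by-site change from input had a median of -1.67 points at 30 min (-5.07 to 2.64) and one of -0.834 points at 60 min (-5.22 to 3.98). A change of at least 10 points with a Newcombe 95% interval that excluded 0 was found in 15 sites (4.25%) upward and 29 (8.22%) downward at 30 min, where 2.80% and 9.63% of all 1931 sites with 2 peaks were called. At 60 min 25 (7.08%) were upward and 22 (6.23%) downward, where 4.35% and 8.03% of all were called. At 60 against 30 min 17 (4.82%) were upward and 7 (1.98%) downward, where 4.45% and 2.12% were called. Upward calls against input were more frequent in the broad sites than in all sites with 2 peaks and downward calls less frequent, a difference that was not tested.

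Among the 207 of these sites with at least 100 counts in each captured library, the change at 30 min ran from -20.6 to 11.4 points. At chr16:30017095 the downstream part held 45.3% in 4sU 30 min, 51.5% at 60 min and 65.9% in input. At chr14:103807692 on the plus strand, with peaks 4 nt apart, it held 23.5%, 29.1% and 38.6%. At chr6:136552174 on the minus strand, with peaks 6 nt apart, it held 57.1%, 57.5% and 45.7%. A shift in balance was thus measurable also between peaks a few nt apart.

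Broad sites were represented in newly made RNA about as often as other sites. The log2 ratio of CPM in 4sU 30 min to input had a median of -0.18 in broad sites (-0.96 to 0.71), -0.29 in focused ends (-1.13 to 0.61) and -0.21 over all 9841 sites. At 60 min the medians were -0.44 (-1.19 to 0.35), -0.58 (-1.33 to 0.25) and -0.47. At 30 min 125 broad sites (19.7%, Wilson 16.8 to 23.0) exceeded the input at least 2-fold with an exact interval that excluded 1, and 152 (24.01%, 20.8 to 27.5) were at least 2-fold lower; 17.9% and 25.8% of all sites were called. At 60 min 72 (11.4%) were higher and 192 (30.3%) lower, against 12.1% and 32.7% of all sites. The shares of broad sites were near those of all sites. Both ratios have the same input library in the denominator.

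**Figure D4:**
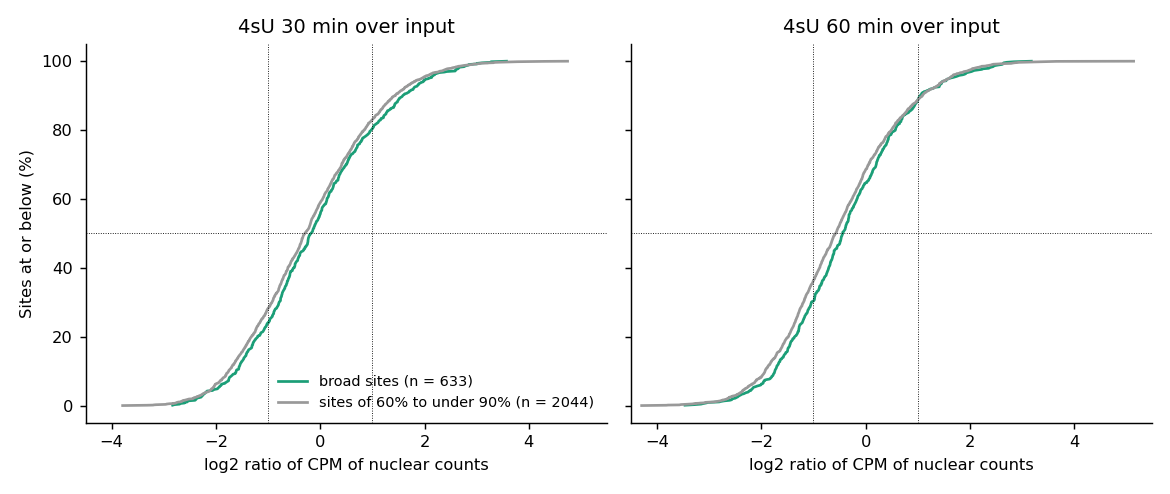
Cumulative percentage of sites (vertical axis) by log2 ratio of CPM of nuclear counts (horizontal axis) in 4sU 30 min over input (left) and 4sU 60 min over input (right), for 633 broad sites (green) and 2044 sites of 60% to under 90% (grey). Dotted lines mark 2-fold differences and the median; the curves of the classes lie close together, with medians of -0.18 and -0.29 at 30 min and -0.44 and -0.58 at 60 min.

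The sign of these medians depended on the library that chose the members: with the same limits applied in 4sU 60 min the median at 30 min was 0.34, with 36.2% higher and 16.2% lower, and with the limits applied in 4sU 30 min the median at 60 min was 0.29, with 30.05% higher and 14.6% lower. Those members differed from focused ends chosen in the same way by 0.0058 and 0.0405. The small difference between the classes also moved with depth. Broad and focused sites had median log2 ratios at 30 min of 0.24 and 0.047 for 300 to under 600 input counts, -0.23 and -0.18 for 600 to under 1500, and -0.52 and -0.70 from 1500. The direction between the classes thus turned in the middle depth class. All medians also moved with the scaling: with median-of-ratios scaling those of broad sites, focused ends and all sites at 30 min were -0.55, -0.66 and -0.58, and higher sites were 27.5% of the calls in broad sites, 21.6% in focused ends and 24.7% in all, in place of 45.1%, 37.6% and 40.98%. When mitochondrial (chrM) counts entered the total they were 24%, 19.4% and 21.9%, and with TMM scaling 28.0%, 21.9% and 25.1%. At 60 min higher sites were 27.3%, 23.7% and 26.9% of the calls, and 13.03%, 11.4% and 13.01% when chrM counts entered the total.

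Single broad sites spanned a wide range. At 30 min the highest ratio was at chr21:43159535 on the minus strand, with 162 CPM in 4sU 30 min, 123 CPM at 60 min and 13.6 CPM in input, 11.9-fold (10.7 to 13.2) and 9.05-fold (8.04 to 10.2) the input. Its peaks, 9 nt apart, held 18.3%, 13.5% and 19.1% (upstream) and 17.5%, 19.7% and 16.9% (downstream). The site at chr19:17845322 on the plus strand had 220 CPM, 185 CPM and 25.7 CPM, and the 3-peak site at chr7:45022625 on the minus strand 563 CPM, 391 CPM and 69.95 CPM. All 3 zones were higher than input in both captured libraries.

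A pair of other sites, high at 30 min, had much lower levels at 60 min. The site at chr1:52497777 on the minus strand had 174 CPM, 54.5 CPM and 17.9 CPM in 4sU 30 min, 4sU 60 min and input, 9.69-fold the input at 30 min and 3.03-fold at 60 min. At chr20:17948326 on the minus strand, with peaks 20 nt apart, the levels were 229 CPM, 58.8 CPM and 23.7 CPM, or 9.64-fold and 2.48-fold. Its upstream peak held 17.7%, 19.1% and 14.2% and its downstream peak 20.2%, 24.3% and 20.1%, so both peaks stayed in use at both times.

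The lowest ratio at 30 min was at chr11:20405322 on the plus strand, with 2.18 CPM in 4sU 30 min, 1.79 CPM at 60 min and 15.5 CPM in input. This was 7.11-fold lower than input at 30 min (4.60 to 11.6), on 21 counts. The site at chr10:135168672 on the minus strand had 4.66, 9.92 and 32.3 CPM, 6.94-fold lower at 30 min (5.15 to 9.57), and that at chr8:15622173 on the plus strand had 4.77, 10.9 and 30.8 CPM, 6.46-fold lower (4.81 to 8.88). At chr12:93895103 on the plus strand and chr5:81571633 on the minus strand the captured libraries held only 26 and 16 counts at 30 min and 11 each at 60 min, too few to follow their profiles. The 5 most abundant broad sites were also lower in 4sU 30 min, by 2.86-fold at chr9:130209956, 1.89-fold at chr12:56555363, 2.10-fold at chr1:26227059, 3.06-fold at chr1:45976723 and 3.802-fold at chr9:127115759. These 5 were picked for their input counts, the denominator of the ratio, which by itself favours a low ratio.

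Between the captured libraries, the ratio of 60 to 30 min had a median log2 of -0.27 in broad sites, -0.27 in focused ends and -0.25 over all sites. Of the broad sites, 16 (2.53%) were at least 2-fold higher at 60 min and 80 (12.6%) at least 2-fold lower, where 2.82% and 12.8% of all sites were called. These values turned with the scaling: with median-of-ratios scaling the medians were 0.029, 0.027 and 0.0503, with 53 broad sites higher and 44 lower, and with TMM scaling they were -0.015, -0.017 and 0.00596, with 47 and 48. Higher sites were 16.7% of the calls in broad sites by nuclear CPM, 54.6% by median-of-ratios scaling and 49.5% with TMM.

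Among broad sites with at least 100 counts in one of the captured libraries, the lowest ratios of 60 to 30 min were at chrX:13727789 on the plus strand, with 4.55 CPM at 60 min, 41.03 CPM at 30 min and 17.4 CPM in input, and at chr16:96987 on the minus strand, with 11.7, 71.0 and 26.4 CPM. They were 9.01-fold (6.14 to 13.7) and 6.06-fold (4.75 to 7.84) lower at 60 than at 30 min. At chr1:179045701 on the plus strand the level was 2.76 CPM at 60 min and 11.9 CPM at 30 min, against 12.7 CPM in input. The highest ratio was at chr21:46396887 on the plus strand, with 20.2 CPM at 60 min, 6.94 CPM at 30 min and 25.9 CPM in input, 2.90-fold higher at 60 than at 30 min (2.14 to 3.97). The sites at chr9:131017515 and chr22:45959241, both on the plus strand, were 2.30-fold (1.92 to 2.76) and 2.29-fold (1.89 to 2.78) higher.

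The site at chr1:569943 on the plus strand was named for its low share of 12.8% at 1 input position. It had 145 CPM in 4sU 30 min, 181 CPM at 60 min and 38.2 CPM in input. The captured levels were 3.79-fold (3.51 to 4.10) and 4.74-fold (4.37 to 5.14) the input. Its highest position held 12.3%, 13.6% and 12.8%, and the one 6 nt upstream 9.86%, 9.24% and 10.1%. Its mean position was -0.0773 nt (-0.772 to 0.617) from the input at 30 min and -1.02 nt (-1.75 to -0.286) at 60 min. The treatment of multi-mapping reads is not stated. Whether the reads of this site arose at this locus or at a similar sequence elsewhere, chrM included, was not tested.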

How the data were processed

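Poly(A) junctions were measured by 2P-seq in 3 HEK293T libraries, 1 for each group. The deposited tables hold whole-number read counts for each position and strand, without header or normalization. The submitters' processing notes name cutadapt and Bowtie; versions, roles, genome build and the treatment of multi-mapping reads are not stated there.

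From these counts, sites, CPM of nuclear counts, exact intervals of count ratios (Clopper-Pearson), Wilson and Newcombe intervals of shares, and position means and SDs (Python 3.11.15, numpy 2.4.6, scipy 1.17.1; TMM factors from edgeR 4.0.16) were computed. The 95% intervals of ratios, shifts and shares within a site cover counting error of reads only. The protocol names no molecular identifiers, so PCR duplicates may be counted. Wilson intervals of shares of sites are binomial over sites, which are not replicates, and cover no difference between libraries. Ranges in parentheses after medians are quartiles over sites unless named otherwise. Merging, calls and intervals were tested on simulated data of isolated sites with a single peak. Zones with several peaks or close neighbours were not simulated. A count of 0 was set at a floor of 3 counts. With 1 library in each group no test across replicates was possible. No genome of the tables' build was used, so genes, sequences and poly(A) signals were not analysed here. Members, limits and comparisons were chosen with earlier results of these data known. Named sites are, among broad sites, the 5 with the most input counts, the largest input SD or the lowest share at 1 position, the 5 highest and 5 lowest ratios at 30 min and the 3 highest and 3 lowest ratios of 60 to 30 min (at least 100 counts in either library compared), the 4 largest shifts each way at 30 min (at least 100 counts in each library), and 3 on either side of the 25% limit; the extreme changes of sites with 2 peaks were chosen after their values were seen. Alternatives changed the merging distance, limits, minimum counts, scaling, neighbours and the library that chose the members.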

Additional observations from a re-analysis of the deposited data

Results flagged for a closer look

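Mitochondrial (chrM) counts lay outside the comparison of nuclear sites. Their share of a library was 31.8% at 30 min and 31.1% at 60 min, against 7.46% in input. By the limits used for nuclear sites, 228 of 283 chrM sites with at least 300 input counts were broad, and these 228 held 7.95%, 8.08% and 4.20% of all counts in 4sU 30 min, 4sU 60 min and input.

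Calls in opposite directions at 30 and 60 min were made at 2 broad sites for the ratio and at 3 for the mean position. No count over all 9841 sites is given beside them, and the difference between the times was not tested across replicates. The log2 ratio to input at chr16:96987 was 1.43 at 30 min and -1.18 at 60 min, and at chrX:13727789 it was 1.24 and -1.94. The mean position moved opposite ways at 3 sites: by -3.49 nt at 30 min and 2.83 nt at 60 min at chr1:9990305 on the minus strand, with 31 and 32 counts; by 0.847 and -1.51 nt at chr19:11040929 on the plus strand, with 739 and 147 counts; and by -0.992 and 1.34 nt at chr20:18744528 on the plus strand, with 367 and 105 counts.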

How the results depend on the processing

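No paired analysis was possible because each group has 1 library and no result comes from a test across replicates. All alternatives named beforehand were run. Of the recomputed values of the main results, 216 stayed close to those reported, 56 changed by more than the margin set for them and 4 turned direction. The number of broad sites was 151 with a limit of 20%, 1469 with 30%, 950 with a minimum of 150 input counts and 267 with 1000. With the 20% limit, the log2 ratio to input at 30 min was -0.013 (0.28 above focused ends), 26.5% of broad sites were lower at 60 min, the ratio of 60 to 30 min was -0.18 (0.0927 above focused ends), the spread difference at 30 min was 0.103 nt (-0.0537 nt from focused ends), the shift was -0.0847 nt from focused ends and -0.036 in SD units (0.023 from focused ends), and 11.9% were called downstream. With 30%, 6.06% were called downstream. With 150 counts the ratio of 60 to 30 min was -0.33 and 16.3% were called upstream. With 1000 counts the log2 ratios to input were -0.52 at 30 min and -0.63 at 60 min, 11.985% and 7.87% were higher, 30.7% and 35.6% lower, the ratio of 60 to 30 min was -0.17 with 6.37% lower, and 25.8% were called upstream.

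Scaling moved the ratios. When chrM counts entered the total they were -0.62 at 30 min (12.3% higher, 39.0% lower) and -0.87 at 60 min (6.79% and 45.3%). Median-of-ratios scaling gave -0.55 at 30 min (13.7% and 36.2%) and turned the ratio of 60 to 30 min to 0.0292 (8.37% and 6.95%). TMM gave -0.54 (13.7% and 35.4%) and -0.0151 (7.42% and 7.58%). Members chosen in 4sU 60 min had a log2 ratio of 0.34 at 30 min (36.2% and 16.2%), 0.0058 above focused ends chosen the same way, a spread -0.0155 nt from focused ends and 24.3% upstream calls. Members chosen in 4sU 30 min had a log2 ratio of 0.29 at 60 min (30.05% and 14.6%), 0.0405 above focused ends chosen the same way, and a spread difference of 0.0761 nt, 0.0195 nt from focused ends. Merging within 12 nt gave spread differences of 0.015 nt at 30 min and -0.0132 nt at 60 min (-0.0895 nt from focused ends). Against all sites over 25% the spread was -0.0539 nt. With at least 100 counts in each library, an alternative added after the data were seen, 24.2% were called upstream. The cause of these movements was not tested. Of the values recomputed for named sites, 133 stayed within their interval and 63 left it, with no change of direction. Sites near 300 input counts had few captured counts, so their profiles and shifts are the least precise.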
